A study of Mus musculus with 6 samples.

Results

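A set of 7 neuropeptide genes, Nts, Gal, Npy, Ucn, Adcyap1, Cck and Vip, was followed in lumbar dorsal root ganglia after vincristine. They were chosen by symbol, as peptide genes with a record of induction after nerve injury or with higher counts in these vincristine libraries, and all 7 symbols were found among the 38926 symbols of each count table. The values of the vincristine and vehicle libraries therefore took part in the choice, and the levels and fold changes of these 7 genes are given as a description with no test. The vincristine group held 3 samples from wild-type female C57BL/6 mice aged 8 to 10 weeks that had received a cumulative 40 µg of vincristine, a tubulin-binding chemotherapy drug, by intraplantar injection, although the deposited tables are named for 10 µg. The vehicle group held 3 samples from mice of the same strain, sex and age that had received the vehicle. Each sample pooled ganglia L3, L4 and L5 of the treated side from 4 animals, and its total RNA was sequenced. The labels do not state how long after the last injection the ganglia were taken.

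Neuropeptides are made as longer precursors, cut by prohormone convertases in the secretory pathway, stored in dense-core vesicles and released to act on G-protein-coupled receptors. In sensory ganglia the peptide repertoire is known to shift when the peripheral axon is damaged: galanin, neuropeptide Y, vasoactive intestinal peptide and PACAP, scarce or restricted in intact neurons, are classically described as increased after nerve cut, in rats above all. Vincristine blocks microtubule assembly and so impairs transport along the long axons of these neurons.

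The libraries held between 12374331 and 26346304 reads counted in genes, with the smallest total in vincristine replicate 1. That library stood apart on the first principal component, which held 56.4% of the variance. Its 15 pan-neuronal markers, a list that includes the ganglion-neuron genes Avil, Isl1 and Pou4f1, summed to 4845 CPM (reads scaled with TMM, the trimmed mean of M-values), against 10462 and 12787 CPM in the other vincristine libraries and 10172 to 13516 CPM in the vehicle libraries. Its neutrophil markers summed to 7939 CPM, against 2592 and 2966 CPM in the other vincristine libraries and 827 to 1435 CPM in vehicle. In pooled tissue, fewer cells of a type and less RNA per cell cannot be told apart. Throughout, CPM are scaled in this way, log2 fold changes are those of edgeR for vincristine over vehicle, and adjusted p-values are those of edgeR's quasi-likelihood test with Benjamini-Hochberg adjustment over 16706 genes, called when under 0.05.

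Nts encodes neurotensin, a peptide first known from the hypothalamus and gut that lowers body temperature and modulates pain. It had 136, 193 and 246 CPM in vincristine replicates 1, 2 and 3, against 11.2, 9.69 and 7.90 CPM in the vehicle replicates. The lowest vincristine value was 12.1 times the highest vehicle value, and the groups did not overlap. The means were 192 ± 54.9 CPM in vincristine and 9.60 ± 1.66 CPM in vehicle (SD, n = 3 each). The log2 fold change was 4.32 ± 0.27 (SE). Of the 7 genes Nts gained most in absolute terms, 182 CPM between the means.

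Npy encodes neuropeptide Y, an inhibitory peptide of sympathetic and many central neurons. It had 6.27, 4.49 and 9.67 CPM in vincristine replicates 1, 2 and 3, against 0.448, 0.208 and 0.400 CPM in the vehicle replicates. No vehicle library held more than 8 Npy reads, whereas the vincristine libraries held 81, 86 and 251. The log2 fold change was 4.26 ± 0.42 (SE), close to that of Nts, at a mean level of 6.81 ± 2.63 CPM in vincristine and 0.352 ± 0.127 CPM in vehicle (SD, n = 3 each). Sympathetic neurons and, in rodents, megakaryocytes can also make this peptide, so their markers are set beside it. Dbh, the noradrenaline-synthesising enzyme gene, was at 0.155, 0 and 0.270 CPM in vincristine replicates 1, 2 and 3, against 0, 0.0521 and 0.05 CPM in vehicle. The sympathetic determinant gene Hand2 had 1 read over all 6 libraries. The whole list of 11 sympathetic and catecholaminergic markers summed to 40.1 to 105 CPM in vincristine and 72.8 to 113 CPM in vehicle. Most of it was Th, which some sensory neurons express. Of the 7 of them tested, 6 had a positive log2 fold change and 1 a negative one, with a median of 0.22. By edgeR 1 was higher at p under 0.05 before adjustment, and 0 were called. The 9 megakaryocyte and platelet markers summed to 221, 61.3 and 108 CPM in vincristine replicates 1, 2 and 3, against 71.4, 43.4 and 62.7 CPM in vehicle, and none was at 0 in all libraries. All 9 had a positive log2 fold change, as had 8241 of the 16706 genes tested. The median of the 9 was 1.32. At an edgeR p under 0.05 before adjustment 6 were higher, beside 8.1% of all genes. In vincristine replicate 2 the sum of 61.3 CPM lay within the vehicle range. The part of these cells in the Npy reads was not tested.

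Gal encodes galanin, an inhibitory peptide known for its role in sensory neuron survival and regeneration in rodents. It had 14.2, 19.7 and 36.5 CPM in vincristine replicates 1, 2 and 3, against 4.99, 5.31 and 4.75 CPM in the vehicle replicates. The groups did not overlap. The vehicle libraries were even for this gene, with a coefficient of variation of 5.67%, against 49.7% among the vincristine libraries, where replicate 3 held 2.58 times the level of replicate 1. The log2 fold change was 2.23 ± 0.35 (SE).

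Ucn encodes urocortin, a peptide of the corticotropin-releasing factor (CRF) family that activates both CRF receptors. It was nearly absent from vehicle ganglia, with 2, 1 and 2 reads in replicates 1, 2 and 3, and had 42, 81 and 207 reads in the vincristine replicates. In CPM the levels were 3.25, 4.23 and 7.98 in vincristine, against 0.112, 0.0521 and 0.100 in vehicle. From the summed reads, 330 in vincristine and 5 in vehicle, the ratio was 64.9 with an exact 95% interval of 27.5 to 201, which covers counting error only. The log2 fold change of 5.80 ± 0.55 (SE) was the highest of the 7 genes. Both Ucn and Npy reached the read minimum for testing through their vincristine libraries.

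**Figure D1:**
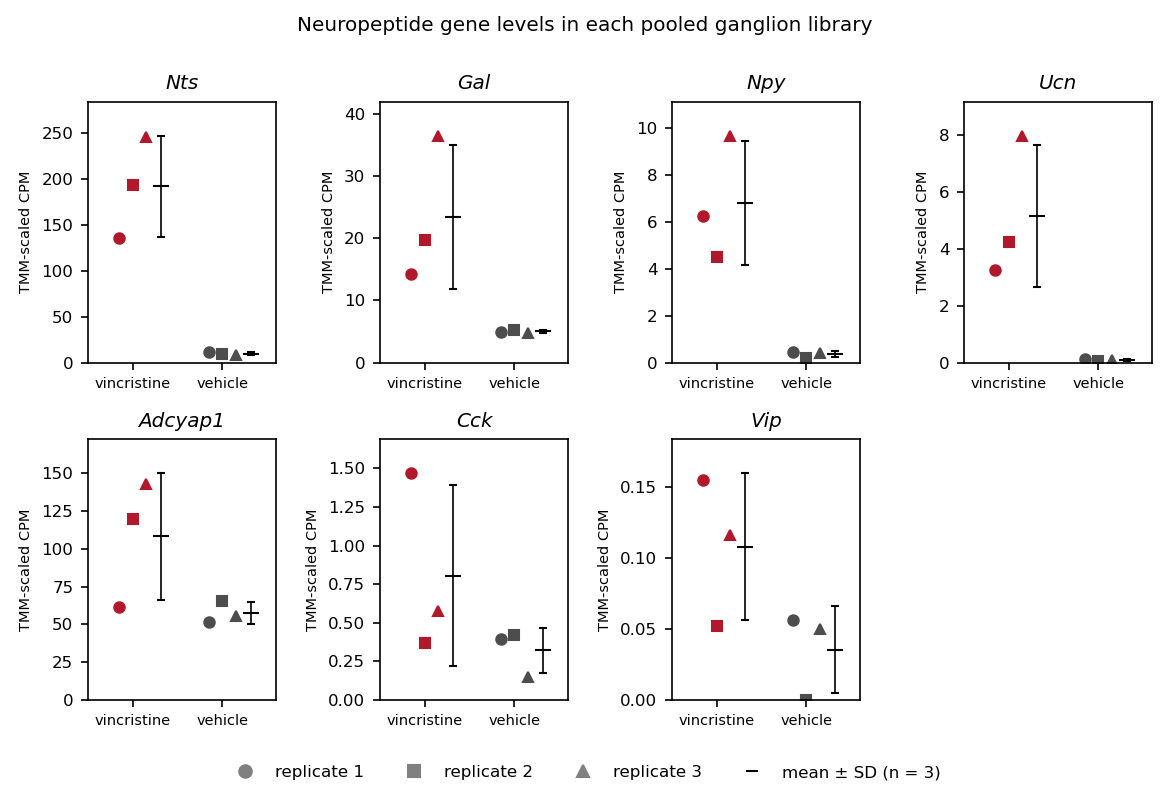
Each panel plots TMM-scaled CPM of 1 neuropeptide gene on a linear axis from 0; symbols are the 3 vincristine and the 3 vehicle libraries, and the black dash with its bar is the mean ± SD. Nts, Gal, Npy and Ucn have every vincristine library above every vehicle library, Adcyap1, Cck and Vip overlap, and replicate 3 is the highest vincristine library for Nts, Gal, Npy, Ucn and Adcyap1.

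Adcyap1 encodes PACAP, a peptide related to VIP that raises cyclic AMP in its target cells and is made by some small sensory neurons without injury. It had 61.5, 120 and 143 CPM in vincristine replicates 1, 2 and 3, against 51.2, 65.7 and 55.3 CPM in the vehicle replicates. Vincristine replicate 1 lay inside the vehicle range, so the groups overlapped, and the log2 fold change was 0.91 ± 0.29 (SE). Leaving out 1 library at a time gave 0.65 ± 0.27 without vincristine replicate 3 and 1.19 ± 0.13 (SE) without vincristine replicate 1, the lowest and highest of the 6 values. Set against the neuronal marker sum of the same library, Adcyap1 was at 12.7, 11.4 and 11.2 CPM per 1000 CPM of markers in vincristine, against 5.03, 4.86 and 4.17 in vehicle. On that scale the vincristine libraries were all higher, and their coefficient of variation was 6.88%, against 38.8% in CPM. For Npy in the vincristine libraries it was 52.8% on the neuronal scale, against 38.7% in CPM. The marker sum contains genes, such as Tubb3, Stmn2 and Nefl, that can themselves respond to axon damage; their log2 fold changes were 0.21, 0.11 and -0.79, and none was called.

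On the same neuronal scale Nts was at 28.1, 18.5 and 19.2 CPM per 1000 CPM of markers in vincristine replicates 1, 2 and 3, against 1.10, 0.717 and 0.595 in vehicle. Gal was at 2.92, 1.88 and 2.86 in vincristine, against 0.490, 0.393 and 0.358 in vehicle. Vincristine replicate 1, the lowest of its group in CPM for Nts, Gal, Ucn and Adcyap1, was the highest of its group for these 4 genes and for Npy once the values were divided by the neuronal markers. How far the neuronal share of that pool bears on the CPM was not tested.

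**Figure D2:**
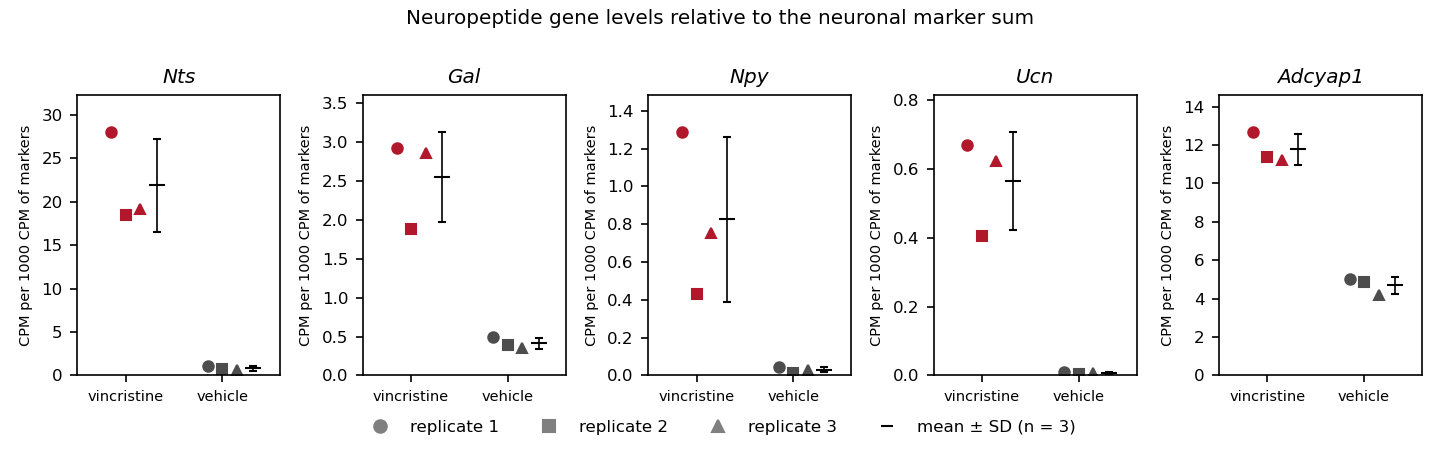
Panels plot the CPM of 5 neuropeptide genes per 1000 CPM of 15 summed pan-neuronal markers in the same library, on linear axes from 0, with mean ± SD (n = 3). Every vincristine library is above every vehicle library in each panel, Adcyap1 included, with 11.2 to 12.7 in vincristine against 4.17 to 5.03 in vehicle.

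Cck encodes cholecystokinin, described as induced in rat sensory neurons by nerve cut and hardly detectable before it. It had 19, 7 and 15 reads in vincristine replicates 1, 2 and 3, against 7, 8 and 3 reads in vehicle, or 1.47, 0.365 and 0.578 CPM against 0.392, 0.417 and 0.150 CPM. The groups overlapped, and the gene did not reach the read minimum for testing. The ratio of the summed reads was 2.24 (exact 95% limits for counting error, 1.26 and 4.14), with 19 of the 41 vincristine reads in replicate 1. Its highest value was in the library with the most transcripts of spinal cord type. The 15 spinal cord neuron and glia markers summed to 398, 134 and 114 CPM in vincristine replicates 1, 2 and 3, against 143, 88.3 and 167 CPM in vehicle. The glycine transporter gene Slc6a5 was at 26.0 CPM in vincristine replicate 1 and at 1.30 to 8.15 CPM elsewhere. All 11 markers tested had a positive log2 fold change, as had 8241 of 16706 genes. The median of the 11 was 1.19, and 0 were called by edgeR. The motor neuron gene Mnx1 was at 0 in every library, and the part of spinal cord transcripts in the Cck reads was not tested. Vip, the gene of vasoactive intestinal peptide, had 2, 1 and 3 reads in the vincristine replicates and 1, 0 and 1 in the vehicle replicates. The ratio of the summed reads, 6 in vincristine and 2 in vehicle, was 2.95 (exact 95% limits for counting error, 0.528 and 29.9), so a change in Vip was not detectable at this depth. For Cck and Vip these values thus neither showed a difference beyond the spread between libraries nor bounded one closely.

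Of the 7 genes, 5 passed the filter on low counts. Vincristine values lay above all vehicle values in CPM for 4 of the 7, whereas 11.5% of all genes tested had this pattern. Since the same contrast helped to choose the 7 genes, nothing is read from these counts.

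Compared per kilobase of exon, the order of the genes differed between the groups. In vincristine Nts led with 154 ± 44.0 CPM per kb (SD, n = 3), apart from all others. Gal followed with 29.8 ± 14.8 CPM per kb, then Adcyap1 with 28.6 ± 11.1, Npy with 12.0 ± 4.65 and Ucn with 10.2 ± 4.95, and each of these overlapped its neighbour. In vehicle ganglia Adcyap1 came first with 15.2 ± 1.98 CPM per kb, apart from Nts with 7.69 ± 1.33, which overlapped Gal with 6.37 ± 0.361. Npy at 0.622 ± 0.224, Cck at 0.245 ± 0.113 and Ucn at 0.175 ± 0.0629 CPM per kb came next in vehicle, and Vip was last in both groups. Of the summed level per kb of the 7 genes, Nts made up 62.6% to 67.9% in the vincristine libraries and 22.6% to 29.7% in the vehicle libraries. The share of Adcyap1 was 10.0% to 13.9% in vincristine and 44.9% to 53.2% in vehicle.

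**Figure D3:**
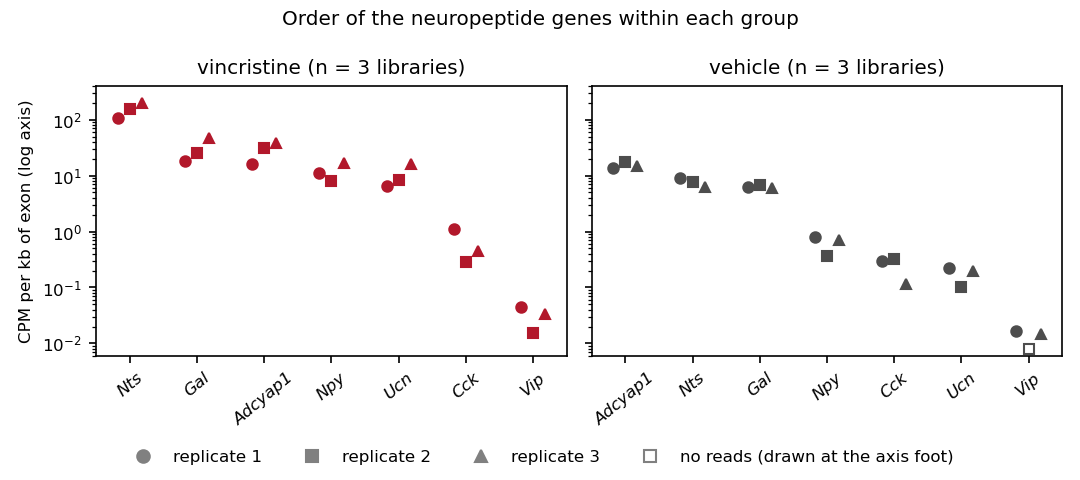
The 7 genes are ordered by mean CPM per kb of exon, on a log axis, in vincristine (left) and vehicle (right); symbols are libraries, and an open symbol marks a library with no reads. Nts, at 109 to 197 CPM per kb, stands above the rest in vincristine, and Adcyap1, at 13.6 to 17.4 CPM per kb, comes first in vehicle.

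All 7 genes are protein-coding on GRCm38 (GENCODE M21) and overlap no other annotated gene. Nts and Vip both lie on chromosome 10, from 102481756 to 102490486 and from 5639218 to 5647617. Gal spans 3409915 to 3414544 on chromosome 19, Npy 49822710 to 49829507 on chromosome 6, and Ucn 31138063 to 31138829 on chromosome 5. Adcyap1 spans 93199017 to 93206537 on chromosome 17, and Cck 121489824 to 121495694 on chromosome 9.

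The promoters of the 4 genes with no overlap between groups are printed so that their sequences can be compared. They are the 250 bases before the RefSeq start of transcription (GRCm38.p6), 5′ to 3′ on the gene's strand. Capitals mark matches, on either strand, to TGACGT (the core of the cyclic AMP response element, CRE), TGANTCA (the AP-1 site bound by Jun, Fos and related factors), TATAAA (the TATA box), CCAAT (the site of nuclear factor Y) and GGGCGG (the GC box).
Nts (chr10:102490419-102490668, minus strand): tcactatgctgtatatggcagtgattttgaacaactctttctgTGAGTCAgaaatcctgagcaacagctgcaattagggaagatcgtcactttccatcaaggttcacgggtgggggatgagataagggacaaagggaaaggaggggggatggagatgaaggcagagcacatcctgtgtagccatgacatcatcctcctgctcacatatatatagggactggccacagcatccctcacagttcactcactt
Npy (chr6:49822460-49822709, plus strand): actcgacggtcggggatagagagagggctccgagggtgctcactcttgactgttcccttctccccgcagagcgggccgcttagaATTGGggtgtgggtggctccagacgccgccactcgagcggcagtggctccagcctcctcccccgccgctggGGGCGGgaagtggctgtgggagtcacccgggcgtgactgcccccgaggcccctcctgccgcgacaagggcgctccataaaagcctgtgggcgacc
Gal (chr19:3414545-3414794, minus strand): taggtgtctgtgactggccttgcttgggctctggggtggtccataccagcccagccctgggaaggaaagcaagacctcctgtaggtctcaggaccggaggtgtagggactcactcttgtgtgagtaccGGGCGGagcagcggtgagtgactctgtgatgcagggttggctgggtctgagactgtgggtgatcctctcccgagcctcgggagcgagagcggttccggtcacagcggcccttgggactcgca
Ucn (chr5:31138896-31139145, minus strand): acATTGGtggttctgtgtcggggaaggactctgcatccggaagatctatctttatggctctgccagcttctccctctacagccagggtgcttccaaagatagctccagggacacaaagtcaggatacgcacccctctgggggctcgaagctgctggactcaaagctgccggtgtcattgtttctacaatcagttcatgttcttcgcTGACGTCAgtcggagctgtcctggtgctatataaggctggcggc

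Each window searched ran from 250 bases before to 50 after the start, and 8 such windows covered the 7 genes, Adcyap1 having 2 starts. The AP-1 letters were found in Nts alone, as TGAGTCA 207 to 201 bases before the start, and 7.81% of all 32851 promoters of the table hold a match. Ucn holds TGACGT on both strands, overlapping as the 8 bases in capitals 44 to 37 before its start. The letters TGACGT were found in 3 of the 7 genes, Ucn, Vip and Adcyap1, and in 7.51% of all promoters. Npy and Gal hold the GC box, as 35.7% of all promoters do, and neither CRE core nor AP-1 letters. CCAAT letters were found in Npy, Ucn and Adcyap1, against 37.4% of all promoters, and TATAAA in Vip and Adcyap1, against 13.6%. No motif of the 5 was found in all of Nts, Npy, Gal and Ucn; Npy and Ucn share CCAAT, and Npy and Gal share the GC box. The windows around the CRE core of the related peptides VIP and PACAP read as follows, with the core in capitals.
Vip (chr10:5639124-5639159, plus strand): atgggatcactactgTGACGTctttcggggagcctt
Adcyap1 (chr17:93198911-93198946, plus strand): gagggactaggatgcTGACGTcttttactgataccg

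The genes most like each of Nts, Gal, Npy and Ucn were found by the root mean square (RMS) difference, over 6 libraries, of log2 CPM minus the vehicle mean. Nearest to Nts were Atf3 at an RMS of 0.34, Gpr151 at 0.35 and Ucn at 0.39 on the log2 scale; Atf3 encodes an injury-induced transcription factor and Gpr151 an orphan receptor. Atf3 had 129, 196 and 289 CPM in vincristine and 7.95, 7.56 and 6.05 CPM in vehicle. Nearest to Ucn were Atf3 at 0.23, the lipase gene Lipn at 0.36 and Nts at 0.39. Nearest to Npy were the receptor gene Qrfpr at 0.43, Gpr151 at 0.49 and Nts at 0.49. Gal kept other company: Lrrc15 at 0.21, the axonal membrane protein gene Flrt3 at 0.23 and the glutamate transporter gene Slc1a7 at 0.24. Flrt3 had 64.0, 104 and 130 CPM in vincristine, against 23.5, 27.7 and 25.8 CPM in vehicle. Nts and Gal were 1.56 apart on this measure and Nts and Adcyap1 2.45, against 0.49 between Nts and Npy. The measure follows the size of the change as well as its shape over the libraries. Its prior count of 2 shrinks the change of genes with few vehicle reads, such as Ucn, Lipn and Slc1a7. Near neighbours can therefore differ in edgeR log2 fold change. Ucn was at 5.80, beside 4.83 for Atf3 and 7.09 for Lipn, and Gal at 2.23, beside 3.15 for Slc1a7.

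The other genes of the peptide system were taken from lists by function. Among 58 other peptide precursors 18 had enough reads to be tested and 12 were at 0 in all libraries. Of the 18 tested 1 rose and 0 fell by edgeR, or 1 of 18 beside 0.293% of all genes called higher and 0.0658% called lower. With no adjustment, 4 had higher and 3 lower values at an edgeR p under 0.05, against 8.1% and 3.27% of all genes. The 3 lower were Calca, Calcb and Nmb, at log2 fold changes of -0.75, -0.70 and -0.92 (edgeR adjusted p = 0.391, 0.416 and 0.365). The median log2 fold change of the list was 0.23, against -0.00 for all genes tested. Its summed level was 553, 1027 and 1060 CPM in vincristine replicates 1, 2 and 3, against 1419, 1403 and 1334 CPM in vehicle. Most of that sum was Calca, at 335, 683 and 702 CPM in vincristine and 987, 953 and 951 CPM in vehicle. The sum was not divided by the neuronal marker sum, which was lowest in vincristine replicate 1. DESeq2 called 3 higher and 0 lower, beside 2.92% and 0.491% of all genes. Of the 18, 5 reached the read minimum through their vincristine libraries, among them Ucn2, Crh and Nms; such genes could be tested only because they were high there, so the count and the median of this list lean towards higher values. The gene that rose, Ucn2, encodes urocortin 2, which like urocortin belongs to the CRF family. It had 0.929, 0.992 and 1.54 CPM in vincristine, against 0, 0.0521 and 0.05 CPM in vehicle. Over the groups these were 71 reads in vincristine and 2 in vehicle, a ratio of 34.9 (exact 95% limits for counting error, 9.31 and 294), and edgeR gave an adjusted p of 0.0305. That call was lost on leaving out vincristine replicate 2 or 3 or vehicle replicate 1, 2 or 3, with edgeR adjusted p-values of 0.101, 0.106, 0.200, 0.221 and 0.201. Crh, the gene of CRF itself, had 54 reads in vincristine and 7 in vehicle (log2 fold change 2.84 ± 0.74, edgeR adjusted p = 0.219). Ucn3, the remaining member of the family, had 2 reads in vincristine and 0 in vehicle. Nms, the neuromedin S gene, was at 1.08, 0.888 and 0.848 CPM in vincristine, against 0.112, 0.313 and 0.150 CPM in vehicle (edgeR adjusted p = 0.109); DESeq2 called Nms and Crh and edgeR did not. Edn1, the endothelin 1 gene, had a log2 fold change of 0.99 ± 0.34 (edgeR adjusted p = 0.336). Adm2, an untested gene named after its values were seen, had 3, 18 and 10 reads in vincristine replicates 1, 2 and 3 and 0 in every vehicle library. Set against a floor of 3 reads over the vehicle group, the ratio was 10.2. The exact 95% lower limit of the ratio, for counting error alone, was 7.78.

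Of 19 receptors and binding proteins, 18 were matched (Galr3 was not) and 13 tested; 1 rose and 0 fell by edgeR, beside 0.293% and 0.0658% of all genes, and the median log2 fold change was 0.25, against -0.00 for all genes. Cckbr, the gene of the cholecystokinin B receptor, had 9.14, 14.6 and 22.6 CPM in vincristine replicates 1, 2 and 3, against 0.224, 0.313 and 0.100 CPM in vehicle. Its log2 fold change was 6.16 ± 0.50 (SE; edgeR adjusted p = 0.0112), and DESeq2 called it too. With 4, 6 and 2 vehicle reads, Cckbr also reached the read minimum through its vincristine libraries. The ligand gene Cck did not show a like difference, with 41 reads in vincristine and 18 in vehicle. The Cckbr call was lost without vincristine replicate 2 (edgeR adjusted p = 0.0502) and without vehicle replicate 1, 2 or 3 (0.144, 0.0676 and 0.126). Cckar, the other cholecystokinin receptor gene, was at 8.44, 26.5 and 29.98 CPM in vincristine and 16.7, 26.2 and 18.1 CPM in vehicle.

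Among neurotensin receptors, Ntsr1 was too scarce to test, with 11 reads in vincristine and 21 in vehicle, and Ntsr2 had a log2 fold change of 0.55 ± 0.58. Sort1, which encodes the sorting receptor sortilin that also binds neurotensin, was at 153, 138 and 128 CPM in vincristine and 120, 108 and 108 CPM in vehicle. Its log2 fold change was 0.32 ± 0.12 (edgeR adjusted p = 0.365). Galr1 was at 2.09, 5.85 and 6.40 CPM in vincristine, against 6.39, 8.86 and 8.25 CPM in vehicle, a log2 fold change of -0.68 ± 0.37 that was not called (edgeR adjusted p = 0.548). Galr2 was too scarce to test, with 20 reads in vincristine and 26 in vehicle. Npy1r and Npy2r, the leading neuropeptide Y receptors of sensory neurons in rodents, had log2 fold changes of 0.14 ± 0.15 and 0.31 ± 0.48. Npy6r had one of 0.25 ± 0.52, and Npy4r and Npy5r were not tested, with 14 and 23 reads in vincristine and 19 and 24 in vehicle. Adcyap1r1, the PACAP receptor gene, was at 26.6, 14.8 and 13.8 CPM in vincristine and 13.4, 10.2 and 14.5 CPM in vehicle. Of the receptors shared by VIP and PACAP, Vipr2 had a log2 fold change of -0.11 ± 0.49 and Vipr1 was not tested, with 31 reads in vincristine and 20 in vehicle. The CRF receptor genes Crhr1 and Crhr2, on which urocortin acts, had log2 fold changes of 0.57 ± 0.30 and -0.32 ± 0.54, and Crhbp, the gene of the binding protein that sequesters CRF and urocortin, -0.36 ± 0.37. None of these was called.

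Of 32 genes for convertases, amidation, granule proteins and peptidases, all tested, 1 rose and 0 fell by edgeR, beside 0.293% and 0.0658% of all genes. A positive log2 fold change was found in 10 and a negative one in 22, against 8241 and 8465 of all genes tested, and the median was -0.09. The gene that rose was Ecel1, a neprilysin-family peptidase gene known to be induced by nerve injury, at 18.4, 39.0 and 55.8 CPM in vincristine and 0.672, 0.521 and 0.650 CPM in vehicle (log2 5.93 ± 0.49, edgeR adjusted p = 0.0112). In vehicle it reached the minimum of the filter in 2 of the 3 libraries. Without vincristine replicate 2 the edgeR adjusted p was 0.0502, and without vehicle replicate 1, 2 or 3 it was 0.144, 0.0730 and 0.126. Next by p were Scg5, which encodes the chaperone of convertase 2, at a log2 fold change of -0.32 ± 0.15, the endothelin-converting enzyme gene Ece2 at -0.46 ± 0.23 and the granule peptide precursor gene Vgf at 0.76 ± 0.37 (edgeR adjusted p = 0.488, 0.505 and 0.505). Vgf was at 24.4, 49.1 and 74.8 CPM in vincristine, against 23.5, 35.0 and 29.6 CPM in vehicle, with vincristine replicate 1 inside the vehicle range. Before adjustment, p was under 0.05 for 1 gene with higher and 0 with lower values, against 8.1% and 3.27% of all genes. The pan-neuronal markers numbered 15, of which 13 had a negative log2 fold change; their median was -0.44, and 0 were called by edgeR (0 with p under 0.05 before adjustment, 0 by DESeq2).

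Transcription factors of the neuronal injury response numbered 19. All were tested and 19 had a positive log2 fold change, with a median of 0.42. Of all 16706 genes tested, 8241 had a positive one and 8465 a negative one. Markers of some blood and immune cells had positive values too, and those of others had negative ones. A positive log2 fold change was found in 12 of 12 neutrophil markers (median 2.02, 10 called by DESeq2 and 0 by edgeR). A positive value was also found in 10 of 10 macrophage markers (median 0.63) and 7 of 7 erythroid markers (median 1.95). DESeq2 called 4 of the macrophage and 6 of the erythroid markers higher, beside 2.92% of all genes, and edgeR called 0 of both. All 8 B-cell markers were negative (median -3.28). EdgeR called 6 of them lower and DESeq2 8, beside 0.0658% and 0.491% of all genes. Of these 8, 6 reached the read minimum through their vehicle libraries. Mast cell markers were negative in 7 of 8 (median -0.38). Of the factors, Cebpd was at 48.9, 38.8 and 33.8 CPM in vincristine and 24.0, 17.5 and 18.6 CPM in vehicle, highest in vincristine replicate 1, where the neutrophil markers were highest. Atf3 and Sox11 were lowest in that library among the vincristine libraries. The part of these cells in the factors' values was not tested. By edgeR 1 rose, Atf3 (log2 4.83 ± 0.33, edgeR adjusted p = 0.00732), and 0 fell; without vehicle replicate 1, 2 or 3 its edgeR adjusted p was 0.107, 0.0676 and 0.0962. DESeq2 called 8 higher, beside 2.92% of all genes, and 12 had higher values at p under 0.05 before adjustment, beside 8.1%. By edgeR the 1 gene stands beside 0.293% of all genes called higher. Sox11, a factor of developing and regenerating neurons, was at 10.1, 22.4 and 29.5 CPM in vincristine, against 3.19, 2.97 and 3.70 CPM in vehicle (log2 2.66 ± 0.38, edgeR adjusted p = 0.0530). Ddit3, of the stress response, was at 0.78 ± 0.13 and the AP-1 gene Fos at 0.77 ± 0.14 on the log2 scale (edgeR adjusted p = 0.0850 and 0.0954). Both passed by DESeq2 and not by edgeR. Of the genes named, Atf3, Cebpd, Nmb, Sort1, Vipr2, Edn1, Ece2, Tubb3, Nefl, Avil, Hand2, Flrt3, Lipn and Qrfpr overlap another annotated gene. The library kit keeps strand, but whether the counting used it is not stated. Some of the reads of these genes may therefore belong to the other gene.

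**Figure D4:**
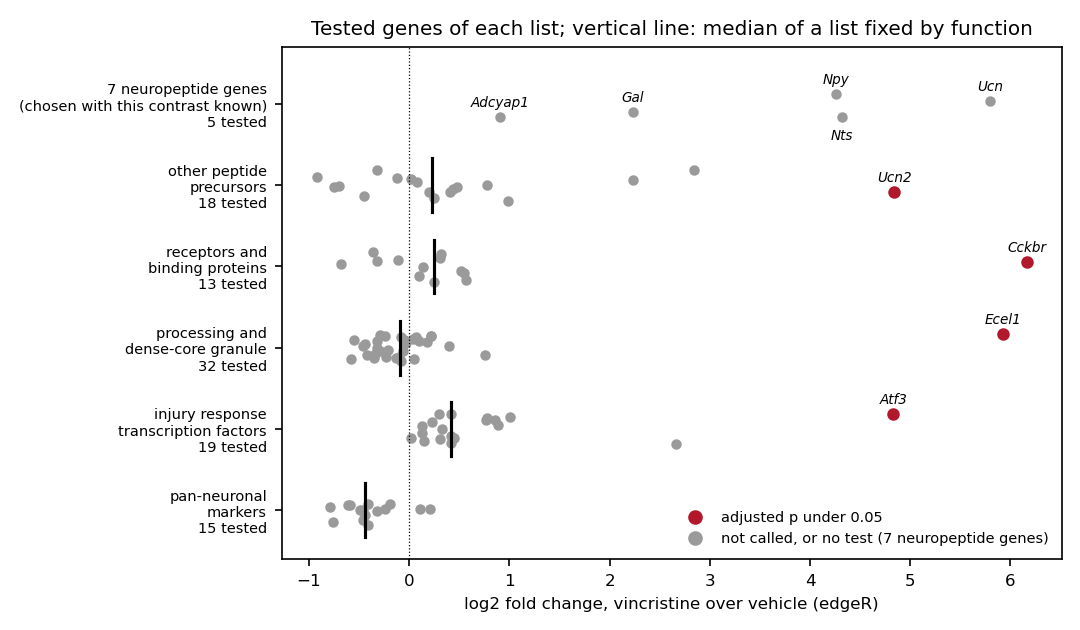
Points are the tested genes of each list at their edgeR log2 fold change, vincristine over vehicle; red marks genes called at an adjusted p under 0.05, grey marks genes not called and the 5 tested neuropeptide genes, which have no test, and the black lines are list medians. In each of the 4 lists other than the neuropeptide genes and the pan-neuronal markers 1 gene was called, Ucn2, Cckbr, Ecel1 or Atf3. These lie between 4.83 and 6.16, and the other points of the 4 lists lie between -0.92 and 2.84.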

How the data were processed

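Total RNA of pooled lumbar ganglia was sequenced in 6 libraries, as single-end reads per the series' design text. The authors deposited unnormalized read counts for each symbol; the submitters' processing notes name STAR, SAMtools, HTSeq and the build mm10 (GRCm38). Tool versions, annotation and strand setting were not stated there. Each table lists 38926 symbols; the counter's summary lines were left out. Of all tallied alignments, 31.1% to 40.5% were not unique and 14.8% to 24.8% overlapped no counted feature. The 24.8% was in vincristine replicate 1, and the other libraries were at 14.8% to 17.0%. Groups and replicate numbers came from the sample titles.

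The test was that of edgeR 4.0.16 (R 4.3.3). After filterByExpr with a minimum count of 10 there were 16706 genes; the fit used TMM scaling, estimateDisp and glmQLFit (both robust), glmQLFTest and treatment as the only term, and had 4 residual degrees of freedom and a common BCV (biological variation between libraries) of 0.193. The SE is the log2 fold change over the square root of F. These steps were also run on simulated counts drawn from a shared mean profile with planted changes, so no library standing apart was simulated. The outcome is not given here. Levels per kb use the union of GENCODE M21 exons. Log2 CPM for the likeness of genes used a prior count of 2. Counting intervals are exact at 95% and cover counting error only.

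The 7 genes, the function lists and the cell markers were chosen with earlier results of these data known. Named were the 7 genes, all receptors, the called genes of the other lists with the 3 of smallest p not called, and the 3 genes nearest in profile. Some others, Calca, Calcb and Nmb among them, were named after their values were seen. Of 262 list entries 3 were matched under another symbol and 3 had no match. Promoter sequences are from RefSeq on GRCm38.p6, matched by symbol for all 7 genes; protein sequences were not used here. Alternatives were DESeq2 1.42.0, limma 3.58.1 voom with sample quality weights, other scalings and filters, the replicate number as a block and leaving out each library.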

Additional observations from a re-analysis of the deposited data

How the results depend on the processing

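Other scalings shifted the log2 fold change of the median gene by -0.00798 to -0.00157. The log2 fold changes of Nts, Gal, Npy, Ucn and Adcyap1 kept their sign in all 70 alternative values, and 69 lay within 1 SD of the vincristine libraries; the exception was Nts divided by the neuronal marker sum, at 4.77. Ranges were 4.10 to 4.77 for Nts, 1.75 to 2.63 for Gal, 3.91 to 4.79 for Npy, 5.31 to 6.24 for Ucn and 0.65 to 1.33 for Adcyap1. With transcript length in place of exon union Gal ranked 3 and Adcyap1 ranked 2 in vincristine. Counts of called genes moved more. Over all genes edgeR called 60, against 99 with no filter on low counts, 569 by DESeq2, 476 by limma-voom with sample quality weights and 261 with the replicate block; leaving out 1 library gave 0 to 346. It was 346 without vincristine replicate 1, 6 without replicate 2 and 18 without replicate 3. Without vehicle replicate 1, 2 or 3 edgeR called 0, with 1462, 1063 and 1409 genes at p under 0.05 before adjustment. Of the other peptide precursors, 1 called by edgeR, 0 were called with a minimum of 1 CPM, 3 by DESeq2, 2 by limma-voom and 0 to 1 without a library. Of the receptors and of the processing genes, 0 to 1 were called without a library. Of the injury transcription factors 3 were called with no filter, 8 by DESeq2, 7 by limma-voom, 4 with the replicate block and 0 to 7 without a library. The cause was not tested. Deviations of same-numbered samples correlated at 0.428, 0.248 and -0.0944. With 3 values of mixed sign, whether the numbers pair the samples cannot be decided. Cck and Vip had no log2 fold change in the test on all libraries because of the filter; with no filter they were at 1.23 ± 0.61 and 1.40 ± 1.04 (SE). Depth limits Vip, Cck and the vehicle levels of Ucn and Npy most.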
